A study of Mus musculus with 10 samples.

Results

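The proteasome genes measured here in sorted osteoblastic lineage cells, which form bone, are those whose symbol begins with Psm, a subunit letter from a to g and a number. Of 19938 genes with a probe set of their own, 50 met this rule, each read from its brightest probe set when averaged across the 10 arrays. Another gene of the family, Psme2b, has only a probe set that it shares with Psme2 and was left out. By role the 50 genes comprise 15 subunits of the 20S core, 17 of the 19S cap, 3 inducible catalytic subunits (the immunoproteasome), 4 assembly factors of the core, 3 of the cap, 4 other activators, 1 inhibitor and 1 thymus-specific subunit. The remaining 2, Psmc3ip and Psme3ip1, carry the symbol of a subunit they bind and are not subunits themselves.

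The cells came from 5 BA mice and 5 age-matched control mice, all C57BL/6, with 1 array per mouse. BA mice carry the transgenes Scl-tTA and TRE-BCR/ABL, in which the Scl promoter, active in blood stem and progenitor cells, drives a transactivator that switches on the BCR/ABL oncogene when doxycycline is absent. The labels call the other mice controls and do not give their transgenes. Both groups lost doxycycline when 5 weeks old. After 5 to 6 more weeks, when BA mice had a myeloproliferative disease, RNA from 500 to 2300 sorted cells per mouse was amplified and hybridised to Affymetrix Gene ST 1.0 arrays.

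The proteasome degrades proteins marked with ubiquitin. Its 20S core is a barrel of outer alpha rings, which gate the entrance, and inner beta rings, in which Psmb5, Psmb6 and Psmb7 cut after hydrophobic, acidic and basic residues. The 19S cap binds ubiquitin chains, removes them and unfolds the substrate with a ring of ATPases. Interferon-gamma induces Psmb8, Psmb9 and Psmb10, which replace Psmb5, Psmb6 and Psmb7 in newly made cores and favour peptides for MHC class I, and blood cells carry these subunits without induction. When proteasome activity falls short, the transcription factor Nrf1 (Nfe2l1) raises the subunit genes together through antioxidant response elements.

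Promoter sequences were read for the 42 proteasome genes found in a RefSeq promoter table (build GRCm38.p6, 250 bases before to 50 after each start). Motifs were searched on both strands. The antioxidant response element, TGACNNNGC, was in the promoters of 6 of these 42 genes (14.3%), against 14% of the 27025 genes in the table. They were Psmb5, Psmb6, Psmc6, Psmd9, Psmd12 and Psme4. The interferon-stimulated response element (GAAA, any 2 bases, GAAA) was in 5 of 42 (11.9%), against 3.99% of all genes. Its matches were in Psmb3, Psmd4, Psmd9, Psme1 and Psmg4. The gamma-activated site, TTCNNNGAA, was in 3 of 42 (7.14%), against 9.55%, namely Psmb8, Psmd2 and Psmg1. The interferon-inducible genes Psmb9, Psmb10 and Psme2 were not among the genes with either match. Only the 42 genes in the table could have one, since a gene outside it was not searched. The promoters of Psmc6 and Psmb6 are shown because these genes had the smallest p of the family. Those of Psmb8 and Psme1 are shown as the genes of the interferon-inducible arm that had a match. Capitals mark the antioxidant response element in Psmc6 and Psmb6, the gamma-activated site in Psmb8 and the interferon-stimulated response element in Psme1. Each runs 5′ to 3′ from 250 bases before the start to 20 after it.
Psmc6 promoter, chr14:45329574-45329843, plus strand: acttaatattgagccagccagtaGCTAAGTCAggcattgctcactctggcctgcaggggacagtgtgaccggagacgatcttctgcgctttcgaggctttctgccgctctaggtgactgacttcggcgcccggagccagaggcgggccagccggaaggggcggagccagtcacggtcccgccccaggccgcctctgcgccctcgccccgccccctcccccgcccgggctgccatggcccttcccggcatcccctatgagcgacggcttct
Psmb6 promoter, chr11:70525107-70525376, plus strand: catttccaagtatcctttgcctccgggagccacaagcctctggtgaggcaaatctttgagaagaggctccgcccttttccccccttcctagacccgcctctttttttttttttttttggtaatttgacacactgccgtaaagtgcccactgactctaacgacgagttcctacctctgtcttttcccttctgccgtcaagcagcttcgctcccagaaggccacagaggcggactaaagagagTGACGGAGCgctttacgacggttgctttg
Psmb8 promoter, chr17:34197945-34198214, plus strand: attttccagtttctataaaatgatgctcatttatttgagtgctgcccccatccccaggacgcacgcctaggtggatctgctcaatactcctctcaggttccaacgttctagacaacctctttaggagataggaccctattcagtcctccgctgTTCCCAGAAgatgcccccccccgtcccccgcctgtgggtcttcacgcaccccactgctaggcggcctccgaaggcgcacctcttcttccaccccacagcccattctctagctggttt
Psme1 promoter, chr14:55578244-55578513, plus strand: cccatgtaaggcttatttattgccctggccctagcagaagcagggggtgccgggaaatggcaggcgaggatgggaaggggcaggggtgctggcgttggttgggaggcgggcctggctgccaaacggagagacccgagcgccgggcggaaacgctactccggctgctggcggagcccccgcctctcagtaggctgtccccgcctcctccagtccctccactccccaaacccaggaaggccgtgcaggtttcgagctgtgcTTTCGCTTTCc
The matches in Psmc6, Psmb6 and Psmb8 begin 227, 9 and 97 bases before the start. The match in Psme1 begins 9 bases after the start. All are matches of letters and not measured sites.

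No proteasome gene passed the threshold of the comparison, BA against control. Of the 50, 0 had an adjusted p under 0.05 (limma, Benjamini-Hochberg over all genes, lowest adjusted p = 0.484), where 0.00502% of all genes did. At an unadjusted p under 0.05, 7 of the 50 were higher in BA cells (14%, against 4.13% of all genes) and 0 were lower (against 5.27% of all genes). In 0 of the 50 were all BA arrays above or all below all control arrays, a separation seen in 0.567% of all genes on the higher side and 1.1% on the lower. The difference, BA minus control on the log2 scale, lay above 0 for 35 of the 50 (70%), against 37.7% of all genes. The median difference was 0.13 over the proteasome genes and -0.06 over all genes.

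**Figure D1:**
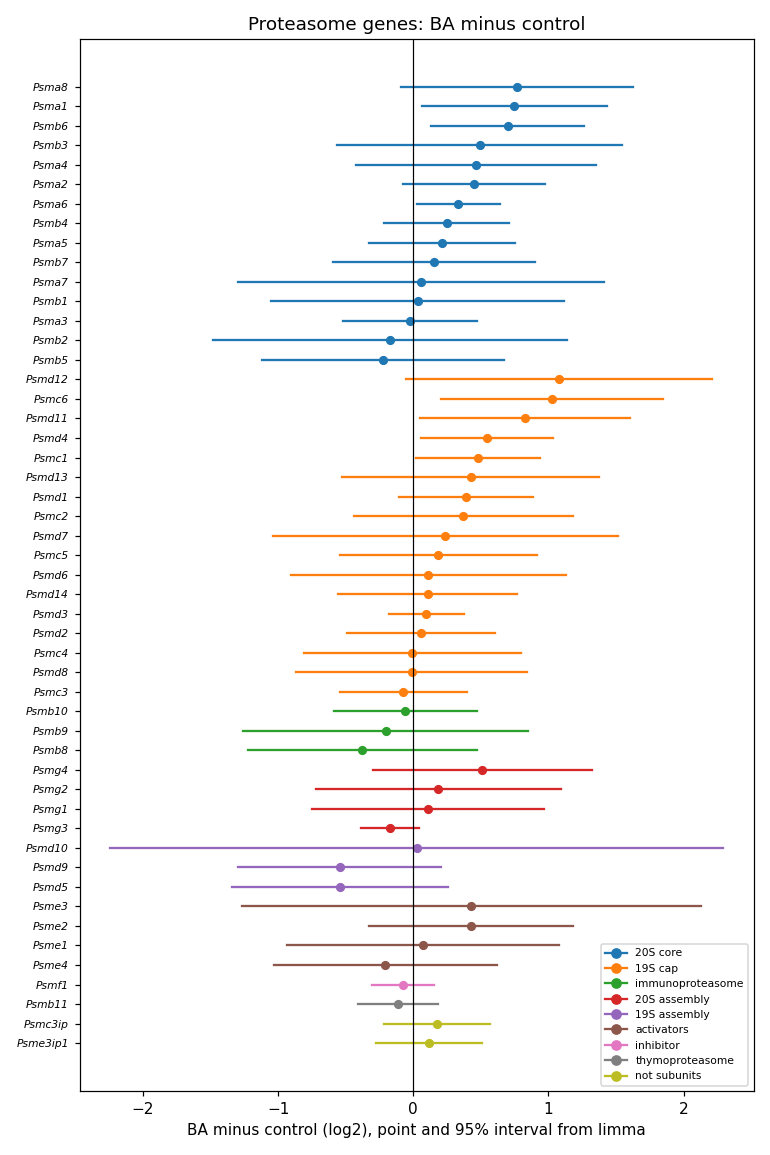
BA minus control difference (log2) of each of the 50 proteasome genes, with its 95% interval from limma, coloured by role. Most core and cap subunits lie right of 0, the 3 immunoproteasome subunits lie left of it, and the intervals of 7 genes exclude 0.

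Proteasome genes are strongly expressed, and differences on these arrays moved with level. Genes were divided into deciles by their mean over all 10 arrays. The median difference over all genes was -0.10 in the lowest decile, 0.11 in the ninth and 0.15 in the highest. The highest decile held 25 proteasome genes with a median difference of 0.21, of which 20 lay above 0 (all genes there, 69.2%). The ninth held 11 with a median of 0.11, of which 8 lay above 0 (all genes there, 60.1%). In these upper deciles together, 28 of 36 proteasome genes had a difference above 0 (77.8%), against 64.7% of the 3987 genes there. At an unadjusted p under 0.05, 6 of the 25 proteasome genes in the highest decile were higher in BA cells, against 13% of all genes in it, and 1 of the 11 in the ninth, against 10.2%. Highly expressed genes as a whole therefore also had differences above 0 more often than not, and whether proteasome genes went beyond them was not tested.

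**Figure D2:**
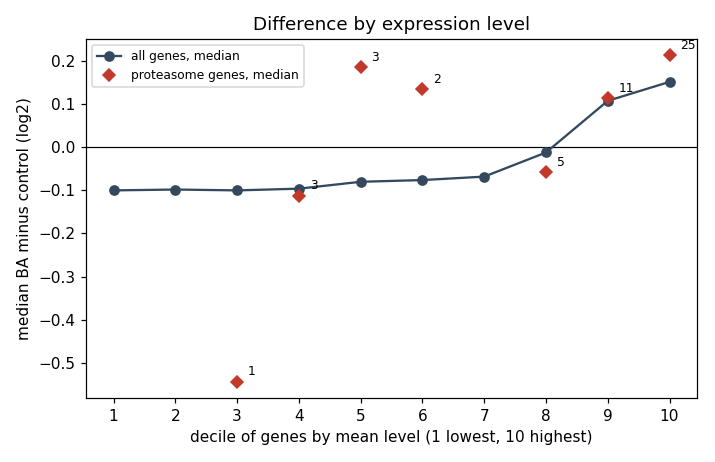
Median BA minus control difference (log2) in each decile of genes by mean level, for all genes (line) and for the proteasome genes (diamonds, with their number). Both lie above 0 in the ninth and highest deciles, which hold 36 of the 50 proteasome genes.

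Over the 15 core subunits, 12 differences lay above 0, from -0.22 to 0.77 with a median of 0.25. Among the 8 alpha subunits of the core, 7 had a difference above 0, with a median of 0.39. Psma1 had 8.16, 8.42, 8.61, 8.63 and 8.68 in BA cells, against 6.53, 7.69, 8.0, 8.42 and 8.12 in control cells (log2 expression, replicates 1 to 5). The BA arrays were close together, and control replicate 1 was far below the rest. The difference was 0.75 ± 0.31 (SE, limma adjusted p = 0.507), and without control replicate 1 it was 0.44. Psma6 had 10.60, 10.92, 10.40, 10.56 and 10.46 in BA cells, against 10.26, 10.44, 10.06, 10.51 and 10 in control cells. Its groups overlapped narrowly, and the difference was 0.33 ± 0.14 (SE, limma adjusted p = 0.507), or 1.26-fold. Psma8, the testis-specific alpha subunit, averaged 6.18 ± 0.94 in BA cells and 5.41 ± 0.22 in control cells (SD, n = 5 each). Its difference, 0.77, was the largest of the core. BA replicate 1 was far above the rest at 7.63, and BA replicates 3 and 4, at 5.27 and 5.44, were within the control range of 5.14 to 5.72.

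Of the 7 constitutive beta subunits, 5 had a difference above 0, with a median of 0.15. Psmb6, the caspase-like catalytic subunit, had 9.21, 9.23, 9.47, 9.57 and 8.97 in BA cells, against 9.43, 8.45, 8.43, 8.80 and 7.85 in control cells. All BA arrays were above all control arrays but replicate 1. The difference was 0.70 ± 0.26 (SE, limma adjusted p = 0.484), or 1.62-fold, with a 95% interval of 0.13 to 1.26. For the other catalytic subunits the groups overlapped widely. Psmb5, the chymotrypsin-like one, had 7.10, 7.54, 8.65, 9.16 and 9.13 in BA cells, against 8.24, 8.43, 9.17, 8.50 and 8.36 in control cells. BA replicates 1 and 2 were the lowest of all 10 arrays and BA replicates 4 and 5 among the highest, and the difference was -0.22 ± 0.40 (SE). Psmb7, the trypsin-like one, had 8.45, 8.10, 8.87, 8.05 and 9.44 in BA cells, against 8.59, 8.93, 8.61, 8.65 and 7.37 in control cells, a difference of 0.15 ± 0.34 (SE). The sign for Psmb5 turned without BA replicate 1 (0.08), and that for Psmb7 without BA replicate 5 (-0.06) or control replicate 5 (-0.11).

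**Figure D3:**
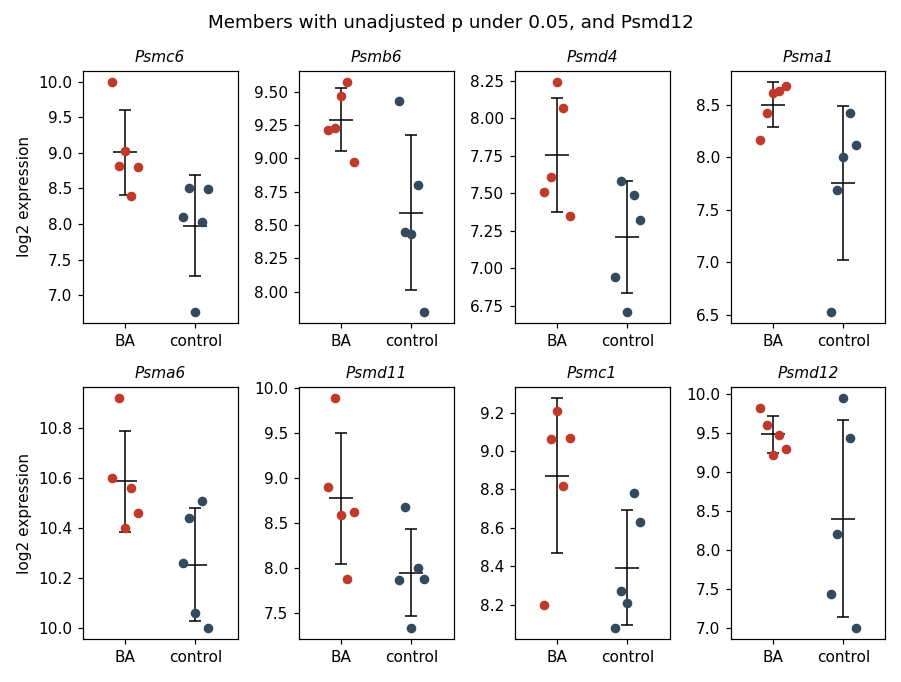
Log2 expression of the 7 proteasome genes with an unadjusted p under 0.05, and of Psmd12, which had the largest difference. Points are single arrays, bars the mean and SD (n = 5 each). In every panel the BA mean is higher and the groups overlap.

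The immunoproteasome subunits stood on the other side of 0, with small differences. Psmb8 and Psmb10 were in the eighth decile by level, where all genes had a median difference of -0.01 and 47.7% lay above 0. Psmb9 was in the ninth, where the median was 0.11 and 60.1% lay above 0. Whether these subunits departed from genes of their level was not tested. Psmb8, the inducible partner of Psmb5, had 6.06, 6.80, 6.75, 6.09 and 7.70 in BA cells, against 7.56, 7.30, 7.61, 5.96 and 6.86 in control cells. BA replicate 5 was the highest and control replicate 4 the lowest of the 10 arrays, each apart from its own group. The difference was -0.38 ± 0.38 (SE, limma adjusted p = 0.709), with a 95% interval of -1.23 to 0.47. Psmb9, the inducible partner of Psmb6, had 7.73, 6.96, 7.89, 7.57 and 8.63 in BA cells, against 7.27, 9.71, 7.79, 7.13 and 7.90 in control cells, a difference of -0.20 ± 0.47 (SE) with an interval of -1.26 to 0.85. Control replicate 2 was far above the rest, and without it the sign turned (0.23). Psmb10, the inducible partner of Psmb7, had 6.70, 6.91, 7.59, 6.92 and 6.81 in BA cells, against 7.80, 6.66, 6.70, 6.89 and 7.17 in control cells. Its difference was -0.06 ± 0.24 (SE), with an interval of -0.59 to 0.47, and its sign turned with array weights (0.01) and without BA replicate 1 (0.01) or control replicate 1 (0.13).

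**Figure D4:**
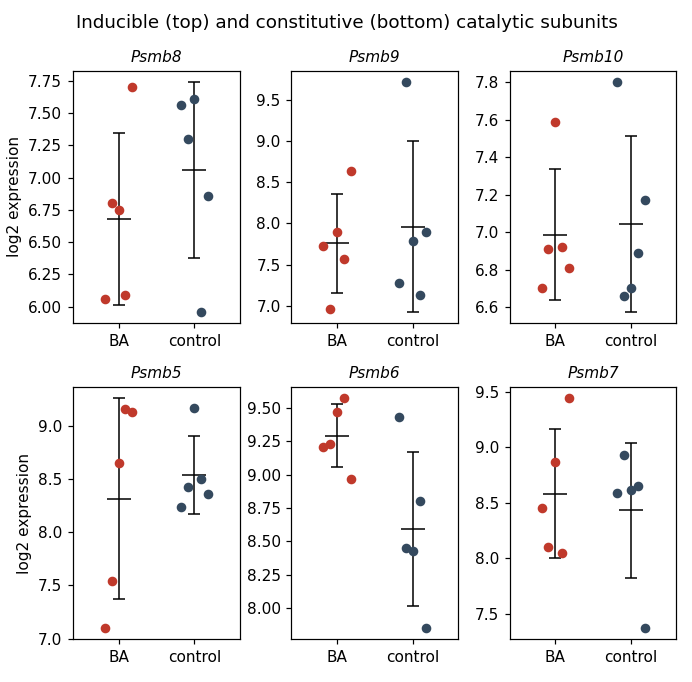
Log2 expression of the inducible catalytic subunits Psmb8, Psmb9 and Psmb10 (top) and of Psmb5, Psmb6 and Psmb7, which they replace (bottom), on each array with mean and SD (n = 5 each). Psmb6 alone shows BA arrays mostly above the control arrays.

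Blood cells carry the inducible subunits, and blood transcripts were present on the arrays at levels that differed between mice. The mean of 12 pan-haematopoietic markers lay between 6.39 and 8.48 in BA cells and between 5.99 and 6.86 in control cells. The 8.48 was BA replicate 5, and the other BA arrays, at 6.39 to 6.74, were within the control range. Of the 12 markers, 9 had a difference above 0. Ptprc, which encodes the CD45 antigen stained in the sort, was 9.29 on BA replicate 5. It was 5.73 to 5.88 on the other BA arrays, within the control range of 5.54 to 5.90. Psmb8 and Psmb9 were highest within the BA group on BA replicate 5. Psmb10 was not, at 6.81 there in a BA range of 6.70 to 7.59. Without BA replicate 5 the differences were -0.63 for Psmb8, -0.42 for Psmb9 and -0.01 for Psmb10. Leaving out other single arrays also moved the values of Psmb8 and Psmb9. Psmb8 was -0.22, -0.23 and -0.24 without BA replicate 1, BA replicate 4 and control replicate 3, and -0.65 without control replicate 4. Psmb9 was -0.005 without BA replicate 2, 0.23 without control replicate 2, -0.38 without control replicate 1 and -0.41 without control replicate 4. With the marker mean as a covariate the differences were -0.72 for Psmb8, -0.62 for Psmb9 and -0.01 for Psmb10, and none of these genes passed. In RNA of pooled cells, more cells of a type and more RNA per cell cannot be told apart.

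The exchange of subunits was also read within each array, as the log2 value of the inducible subunit minus that of the subunit it replaces, a measure chosen after the values were seen. Psmb9 minus Psmb6 averaged -1.53 ± 0.74 in BA cells and -0.63 ± 1.37 in control cells (SD, n = 5 each), a difference of -0.90 (exact two-sided permutation p = 0.246, 0.738 adjusted over the 3 pairs), with 4 of 5 BA arrays below the control mean. The differences for Psmb8 minus Psmb5 and Psmb10 minus Psmb7 were -0.15 and -0.21 (exact permutation p = 0.762 and 0.698, both 0.762 after adjustment). These ratios rest on different probes, so only their difference between groups can be read. Psmb11, the thymus-specific subunit, averaged 5.71 ± 0.17 in BA cells and 5.82 ± 0.235 in control cells (SD, n = 5 each), a difference of -0.11 ± 0.13 (SE), which was -0.18 without BA replicate 2, -0.03 without control replicate 2 and -0.06 without control replicate 4. Its arrays read 5.60, 5.97, 5.58, 5.59 and 5.79 in BA cells, against 5.61, 6.13, 5.66, 6.01 and 5.68 in control cells.

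In the 19S cap, 14 of 17 subunits had a difference above 0, with a median of 0.24 and a range of -0.07 to 1.08. Among the 6 ATPases, which unfold substrates and open the gate of the core, the median was 0.28. Psmc6 had the smallest p of all proteasome genes. It had 9.99, 8.81, 9.03, 8.40 and 8.80 in BA cells, against 8.10, 8.50, 6.77, 8.03 and 8.49 in control cells, so that 4 of 5 BA arrays were above all control arrays. Its difference was 1.03 ± 0.37 (SE, limma adjusted p = 0.484), or 2.04-fold, with a 95% interval of 0.21 to 1.85, and without control replicate 3 it was 0.73. Psmc1, named after its value was seen, had 8.20, 9.06, 9.21, 8.82 and 9.07 in BA cells, against 8.08, 8.27, 8.21, 8.78 and 8.63 in control cells. All BA arrays but replicate 1 were above all control arrays, and the difference was 0.48 ± 0.21 (SE). Another probe set of Psmc1 gave 0.40. The further probe sets of Psma5, Psmb3 and Psmd2 gave 0.48, 0.80 and 0.26, against 0.21, 0.49 and 0.06 for those used, and all values for Psma3 lay between -0.06 and 0.00.

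Of the 11 cap subunits without ATPase activity, 10 had a difference above 0. Psmd4, a receptor for ubiquitin chains, had 7.51, 7.61, 8.24, 8.07 and 7.35 in BA cells, against 6.94, 7.58, 6.71, 7.49 and 7.32 in control cells. With 3 of 5 BA arrays above all control arrays, its difference was 0.55 ± 0.22 (SE, limma adjusted p = 0.507). Psmd11, a scaffold of the lid, had 8.90, 9.88, 8.59, 7.87 and 8.62 in BA cells, against 7.86, 8.67, 7.33, 8.0 and 7.87 in control cells. BA replicate 2 was far above the rest, and the difference was 0.83 ± 0.35 (SE, limma adjusted p = 0.508), or 0.55 without that array. Psmd12, another lid subunit, named after its value was seen, had the largest difference of the family, 1.08 ± 0.51 (SE, limma adjusted p = 0.533). It had 9.82, 9.60, 9.22, 9.47 and 9.29 in BA cells, against 7.43, 8.20, 9.94, 9.44 and 7.0 in control cells. The BA values were close together and inside the range of the control values, which split into low and high arrays.

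Among the 3 assembly factors of the cap, 1 had a difference above 0. Psmd9 and Psmd5, chaperones of the cap's base, had the most negative differences of the family, -0.54 ± 0.34 and -0.54 ± 0.36 (SE, limma adjusted p = 0.584 and 0.593). Psmd9 was -0.32 without control replicate 3, and Psmd5 was -0.29 without control replicate 4. Psmd9 had 6.94, 6.55, 7.09, 6.15 and 6.29 in BA cells, against 6.83, 7.83, 8.03, 6.71 and 6.34 in control cells. Psmd5 had 4.89, 5.51, 4.97, 5.41 and 4.82 in BA cells, against 4.82, 4.88, 5.59, 6.69 and 6.34 in control cells. For both, every BA array was below the control mean and none was below all control arrays except Psmd9 on BA replicates 4 and 5. Psmd5 averaged 5.12 in BA cells and 5.66 in control cells, below the array medians over all probe sets, 5.91 to 6.02. No detection calls were used, so whether Psmd5 was expressed cannot be told. Psmd10 (gankyrin), the base chaperone known as an oncoprotein, varied most of all 50 genes, from 5.90 to 9.13 in BA cells and from 5.06 to 10.2 in control cells.

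Of the 4 factors that build the core, 3 had a difference above 0, with a median of 0.15. Psmg3, which acts in alpha ring assembly, varied least of the 50 genes and had 6.00, 5.82, 5.76, 5.55 and 5.68 in BA cells, against 5.88, 5.99, 5.98, 5.90 and 5.92 in control cells. BA replicates 2 to 5 were below all control arrays and BA replicate 1 above them all, a difference of -0.17 ± 0.10 (SE, limma adjusted p = 0.558). Psmg3 averaged 5.76 in BA cells and 5.93 in control cells, near the array medians over all probe sets, 5.91 to 6.02. Psmf1 and the thymus-specific Psmb11, at similar levels, were also among the genes with the smallest spread. The differences of Psmg1, Psmg2 and Psmg4 were 0.11, 0.19 and 0.51.

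Psme1 and Psme2 form the interferon-inducible activator that opens the core without ATP. Psme2 had 8.25, 7.90, 6.96, 7.41 and 7.23 in BA cells, against 8.03, 7.29, 6.56, 7.37 and 6.36 in control cells, a difference of 0.43 ± 0.34 (SE, limma adjusted p = 0.643). It was 0.24 without control replicate 5, 0.25 without BA replicate 1 and 0.655 without control replicate 1. The probe set that Psme2 shares with Psme2b, not used here, covered nearly the same range in both groups. It read 6.15 to 7.57 in BA cells and 6.09 to 7.31 in control cells. Psme1 had 10.61, 9.30, 9.40, 8.46 and 10.31 in BA cells, against 10.60, 9.68, 9.21, 8.55 and 9.68 in control cells. The groups covered nearly the same range, and its difference was 0.07 ± 0.45 (SE), with a sign that turned under quantile normalization, array weights and the pan-haematopoietic covariate described above. Psme3, the nuclear activator, ranged from 6.98 to 8.31 in BA cells and from 5.33 to 9.24 in control cells. Psmf1, an inhibitor of the core in the test tube, averaged 5.97 ± 0.16 in BA cells and 6.05 ± 0.12 in control cells (SD, n = 5 each), a difference of -0.08 ± 0.10 (SE). Its arrays read 6.19, 5.97, 5.94, 5.75 and 6.01 in BA cells, against 6.01, 6.21, 5.90, 6.01 and 6.11 in control cells, and the difference was -0.13, -0.02 and -0.04 without BA replicate 1, BA replicate 4 and control replicate 2. Psmc3ip, a factor of meiotic recombination, and Psme3ip1, which binds the Psme3 activator, had differences of 0.17 and 0.11.

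Single arrays departed from the rest for many subunits at once, in both groups. Taking each gene's deviation from its mean over all 10 arrays, the median over the 32 core and cap subunits was -0.08, 0.26, 0.28, 0.12 and 0.35 in BA replicates 1 to 5, against -0.07, 0.08, -0.27, -0.03 and -0.17 in control replicates 1 to 5. BA replicate 1 lay within the control range and the other BA arrays above it. On BA replicate 1, 20 of the 32 subunits were below their own mean, against 4 to 12 on the other BA arrays, and on the control arrays the number was 9 to 25. Control replicate 5 held the lowest value of the 10 arrays for 12 of the 50 genes, and BA replicate 1 and control replicate 3 for 9 each. BA replicate 1 and control replicate 3 were not low throughout, since they also held the highest value for 6 and 7 genes. Control replicate 5 held it for 3, and 25 of the 32 core and cap subunits were below their own mean there.

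**Figure D5:**
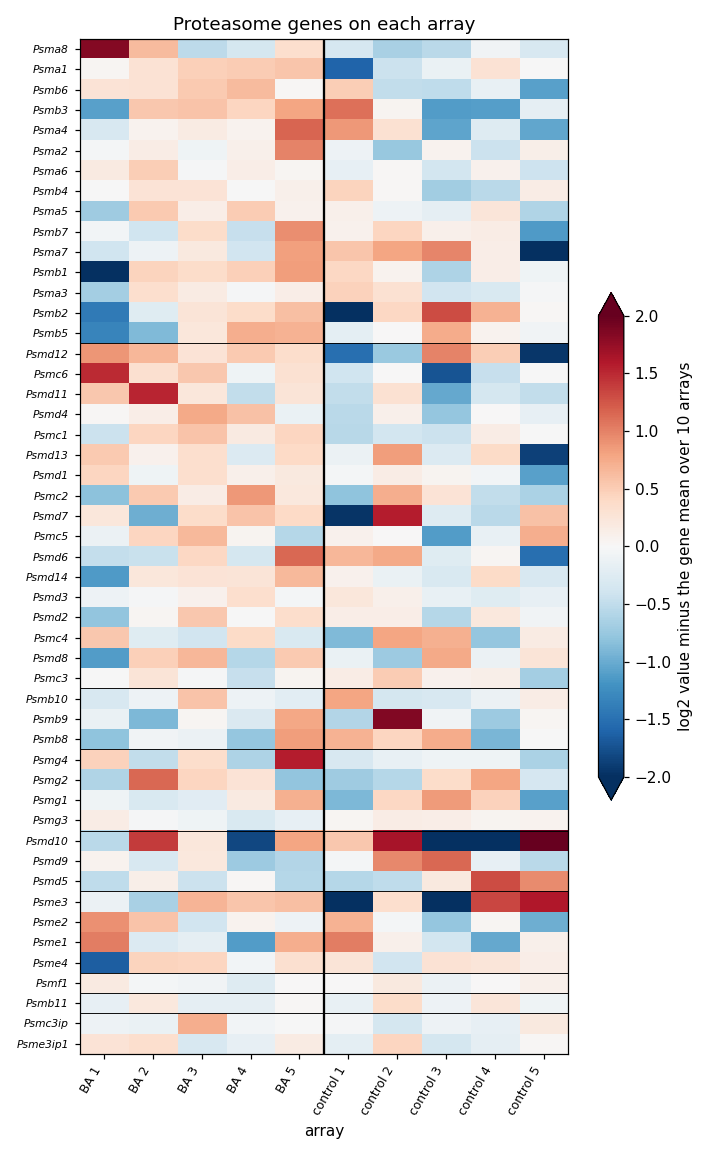
Deviation of each proteasome gene from its own mean over all 10 arrays (log2, colours end at 2 in either direction), with BA arrays left and control arrays right of the black line and roles divided by thin lines. BA replicate 1 is low for Psmb1, Psmb2 and Psmb5 and high for Psmc6 and Psma8, and control replicate 5 is low for Psma7, Psmd12 and Psmd13.

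Genes that work beside the proteasome are given from lists, with 0 members past the threshold in each. Of 12 partner genes of the cap and core, 10 had a probe set of their own, and 8 of these had a difference above 0, with a median of 0.30. Usp14, a deubiquitinase that docks on the cap, differed by 0.74 ± 0.20 (SE, limma adjusted p = 0.400), with BA arrays at 7.18 to 7.92 and control arrays at 6.25 to 7.12, fully apart. Uchl5, the other docked deubiquitinase, differed by 0.85 ± 0.44, the proteasome-binding protein Ecpas by 0.42 ± 0.25 and Akirin2, which carries proteasomes into the nucleus, by -0.26 ± 0.15. In the list around Nrf1, 8 of 9 measured genes had a difference above 0, with a median of 0.19. Nfe2l1 itself differed by 0.33 ± 0.19, its dimer partner Mafg by 0.27 ± 0.19, and Nploc4 and Ufd1, cofactors of the unfoldase that extracts Nrf1 from the membrane, by 0.40 ± 0.16 and 0.66 ± 0.39 (SE). Single arrays weighed on these values: Ufd1 was 0.32 and Nfe2l1 0.21 without control replicate 1, Nfe2l1 0.22 without control replicate 2, Nploc4 0.25 without control replicate 5 and Mafg 0.17 without BA replicate 3. Among the partners, Uchl5 was 0.50 without control replicate 3, and Ecpas and Akirin2 were 0.64 and -0.17 without control replicate 1.

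Of 12 genes of ubiquitin activation and shuttling, 6 were measured, 4 of them with a difference above 0. Sqstm1 (p62), a receptor that brings ubiquitinated cargo to autophagy, averaged 9.74 ± 0.24 in BA cells and 8.77 ± 0.53 in control cells (SD, n = 5 each), a difference of 0.97 ± 0.24 (SE, limma adjusted p = 0.384) with the groups fully apart. Uba6, a ubiquitin-activating enzyme, differed by 1.37 ± 0.37 (SE, limma adjusted p = 0.400), the shuttle Ubqln2 by 0.33 ± 0.18 and the shuttle Rad23b by -0.40 ± 0.24 (SE). Antigen presentation genes, which use the peptides the immunoproteasome makes, had a median difference of -0.02 over 10 measured genes. B2m, the light chain of MHC class I, differed by -0.41 ± 0.20, the chaperones Calr and Canx by -0.31 ± 0.16 and 0.15 ± 0.13, and Tapbp, which loads peptides, by 0.25 ± 0.18 (SE). Among these, leaving out 1 array gave -0.27 for B2m (BA replicate 2), -0.20 for Calr and 0.14 for Tapbp (control replicate 1), and 0.37 for Tapbp and 0.25 for Canx (control replicate 2), with 0.10 for Canx without control replicate 3. Ubqln2 was 0.18 without control replicate 5 and Rad23b -0.20 without BA replicate 2.

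Among inducers of the immunoproteasome, 10 of 12 genes were measured, with a median difference of 0.09. Irf1, the transcription factor that activates Psmb9, differed by -0.95 ± 0.50, the interferon receptor genes Ifngr1 and Ifnar1 by -0.68 ± 0.36 and -0.51 ± 0.18, and the kinase gene Jak2 by 1.08 ± 0.44 (SE, limma adjusted p from 0.484 to 0.547). Without control replicate 5, Irf1 was -0.62 and Jak2 0.64. Of the 45 genes measured over these 5 lists, 5 were higher at an unadjusted p under 0.05 (Usp14, Sqstm1, Uba6, Nploc4 and Jak2, against 4.13% of all genes) and 1 was lower (Ifnar1, against 5.27% of all genes). In the ninth and highest deciles by level, 10.2% and 13% of all genes were higher at that p. The list genes were not divided by level, so whether they went beyond genes of their level was not tested.

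The arrays hold transcripts of bone and cartilage. The osteoblast matrix gene Ibsp averaged 12.70 ± 0.09 in BA cells and 12.71 ± 0.08 in control cells, and the cartilage regulator Sox9 averaged 11.45 ± 0.07 in BA cells and 11.26 ± 0.20 in control cells (SD, n = 5 each). Of 7 measured osteoblast markers, 3 had a difference above 0 (Alpl at 0.47, Pth1r at 0.22 and Sp7 at 0.03) and 4 below (Col1a1 at -1.25, Col1a2 at -1.16, Dmp1 at -0.42 and Ibsp at -0.01), with a median of -0.01 and 0 past the threshold. At an unadjusted p under 0.05, 3 of the 7 were lower (Col1a1, Col1a2 and Dmp1), against 5.27% of all genes, and 0 were higher. For Col1a2 all BA arrays were below all control arrays, a separation seen in 1.1% of all genes. The mean of 7 measured osteoblast markers lay between 8.97 and 9.87 in BA cells and between 9.43 and 10.2 in control cells. The mean of 12 neutrophil markers lay between 7.30 and 9.73 in BA cells and between 6.53 and 8.61 in control cells, that of 10 macrophage markers between 5.89 and 7.36 in BA cells and between 5.71 and 6.25 in control cells. All 12 neutrophil markers and 8 of 10 macrophage markers had a difference above 0, with medians of 0.87 and 0.355 and 0 past the threshold. The macrophage mean of BA replicates 1, 4 and 5 was above that of every control array. The mean of 8 endothelial markers lay between 5.38 and 5.59 in BA cells and between 5.43 and 5.85 in control cells. The highest neutrophil and macrophage means were again those of BA replicate 5. The part of these cell types in the proteasome values was not tested beyond the covariate above.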

How the data were processed

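RNA was measured on 10 arrays, 1 per mouse, with replicates labelled as single mice. The deposited values are log2 expression of 35557 probe sets, made with GCRMA (background correction by probe sequence, normalization and summary) per the submitters' processing notes, which name no version. That the base is 2 was read from their range, 1.21 to 13.7. No detection calls were used, and precision is set by having 5 arrays in each group. Probe sets were named from the platform annotation, and 21789 had 1 symbol.

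BA was compared with control with the limma package (3.58.1, under R 4.3.3), using lmFit then eBayes with no covariate, two-sided, adjusted by Benjamini-Hochberg over 19938 genes, with a threshold of 0.05. The script was tested on simulated data. Exact permutation tests used scipy 1.17.1. The members, lists and tests were chosen with earlier results of these data known. Arrays are given for the 6 genes with the smallest p in each direction, the catalytic and inducible subunits, Psme1 and Psme2, and up to 4 genes are named per list. Other genes were named after their values were seen.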

Additional observations from a re-analysis of the deposited data

Results flagged for a closer look

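In the 100 sets of 5 arrays (50 genes in each group), 14 single arrays stood apart from the rest of their group by Dixon's test, where chance gives about 1 in 20. BA replicate 1 accounted for 4 of them, all low: Psmb1 at 5.93 against 8.35 to 8.82 on the other BA arrays, Psmb3 at 6.76 against 8.28 to 8.64, Psmd14, the cap's deubiquitinase, at 7.55 against 8.90 to 9.32, and Psme4, an activator of the core, at 6.71 against 8.30 to 8.80. Control replicate 5 accounted for 3, also low: Psma7 at 7.22 against 9.92 to 10.77 on the other control arrays, Psmb7 at 7.37 against 8.59 to 8.93 and Psmd1 at 8.0 against 9.02 to 9.22. On control replicate 3, Psmc6 was low at 6.77 against 8.03 to 8.50 and Psmb5 high at 9.17 against 8.24 to 8.50. On BA replicate 3, Psmb10 was high at 7.59 against 6.70 to 6.92 and Psmc3ip, a meiotic recombination factor, at 7.06 against 6.19 to 6.32. The others were Psma2, high at 9.74 on BA replicate 5 against 8.66 to 8.89, Psmd7, low at 7.90 on BA replicate 2 against 9.09 to 9.44, and Psme4, low at 7.97 on control replicate 2 against 8.49 to 8.64. What set these values apart was not tested.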

How the results depend on the processing

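Under the 18 alternatives and a looser threshold of 0.10, the number of proteasome genes past the threshold was 0 each time, and their lowest adjusted p was 0.327. The number of genes past it over the whole table was 1, and 0 with the replicate block, among genes above the median level and with the pan-haematopoietic covariate, and between 0 and 13 when each array was left out in turn (13 without BA replicate 4). The number of proteasome genes higher at an unadjusted p under 0.05 was 7, and 2 (Psmb6 and Psmc6) with quantile normalization, and between 3 and 8 without each array, with 3 without BA replicate 2 or control replicate 1 and 4 without BA replicate 3, 4 or 5 or control replicate 3. Psmc6 and Psmb6 stayed under 0.05 in all 18. The number lower was 0, 1 with the replicate block (Psmd9), and between 0 and 1 without each array. The median differences ran, without each array, from 0.21 to 0.41 for the core, from 0.17 to 0.45 for the cap (0.45 without control replicate 2), from -0.42 to -0.04 for the immunoproteasome, from -0.03 to 0.32 for core assembly (below 0 without control replicate 1 or 5), from -0.62 to -0.37 for cap assembly and from -0.02 to 0.35 for the activators (below 0 without control replicate 3). Quantile normalization brought the core and cap medians to 0.15 and 0.14 and that of all genes in the highest decile by level to 0.05. Of the 50 differences, 27 were above 0 with quantile normalization, with the pan-haematopoietic covariate and without BA replicate 5, against 35 in the fit reported. With median centring 53.7% of genes at an unadjusted p under 0.05 were higher, against 43.9% as deposited, and 38 proteasome genes had a difference above 0. Of 40 named genes, 35 kept their sign throughout. The others were Psmb10 (0.0099 with array weights, -0.21 to 0.13 without each array), Psmb7 (-0.084 with the covariate, -0.11 to 0.29), Psme1 (-0.035 with quantile normalization, -0.0068 with array weights, -0.25 with the covariate, -0.18 to 0.36), Psmb5 (-0.43 to 0.08) and Psmb9 (-0.42 to 0.23). Nothing in the labels pairs the mice by replicate number. Deviations of same-numbered arrays correlated between -0.10 and 0.11, over 0.1 for 1 of 5 pairs, and 1 of 5 BA arrays correlated best with the control array of its own number. The cause of these shifts was not tested.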
